A study of Mus musculus with 6 samples.

Results

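Fatty acid oxidation and the citrate cycle were read here through 10 mouse genes: Cpt2, Acadvl, Acadl, Acadm, Hadha, Hadhb, Hadh, Cs, Idh3a and Idh1. They are 10 of the 12393 genes that the array annotation names by 1 symbol, and they were taken by symbol, with every probe set annotated to exactly 1 of them. The array holds 20 such probe sets, of which 16 were measured, meaning that their signal was above a floor of 53.46 on at least 2 of 6 arrays. Each gene had at least 1 measured probe set and is read from its brightest one unless stated otherwise. The genes were selected on the signals of these same 6 arrays, with the differences between AdOVA and the other groups already known, so those differences are a description and carry no test.

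The arrays measured dendritic cells grown from bone marrow of CAR-transgenic mice. The labels describe 1 female of 13 weeks and do not name the promoter of the transgene. The groups were AdIkBa-SR with TNFa, AdIkBa-SR alone, AdOVA with TNFa, AdOVA alone, TNFa without virus, and untreated cells, with 1 Affymetrix MOE430A array each. AdIkBa-SR is an adenovirus that carries a super-repressor form of IkBa, the inhibitor that holds NF-kB in the cytoplasm, and AdOVA is its control virus. Virus was given at 1500 particles per cell for 2 h, followed by 18 h of culture, and TNFa at 50 ng/ml for 4 h. All groups, untreated cells included, carried the CAR transgene and were grown with the same growth factors. No mock transduction is recorded for the cells without virus, so in comparisons with them, effects of the virus and of handling during transduction cannot be told apart.

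In mitochondrial fatty acid oxidation, long-chain acyl groups enter the matrix as carnitine esters, and repeated cycles of dehydrogenation, hydration, dehydrogenation and cleavage release acetyl-CoA. Citrate synthase joins acetyl-CoA with oxaloacetate, and NAD-dependent isocitrate dehydrogenase then catalyses an oxidative step of the cycle. Activated dendritic cells are known to shift from oxidative metabolism towards glycolysis. Idh1 is not an enzyme of the mitochondrial cycle itself: it is the cytosolic and peroxisomal NADP-dependent isocitrate dehydrogenase, a source of NADPH.

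Promoters are shown for orientation: those of Idh1, Hadh and Cs, which with AdOVA were at least 2-fold lower in both pairs, and those of Hadhb and Cpt2, which were not by their brightest probe sets. Each line is the 250 bases before a RefSeq start site on GRCm38.p6, 5′ to 3′ on the strand of the gene, and capitals mark a GC box of the kind bound by Sp1 (GGGCGG, or CCGCCC where it lies on the other strand). The windows are chr1:65186480-65186729 on the minus strand for Idh1, chr3:131272102-131272351 on the minus strand for Hadh, and chr10:128337477-128337726 on the plus strand for Cs. The others are chr5:30155003-30155252 on the plus strand for Hadhb and chr4:107923590-107923839 on the minus strand for Cpt2.
Idh1: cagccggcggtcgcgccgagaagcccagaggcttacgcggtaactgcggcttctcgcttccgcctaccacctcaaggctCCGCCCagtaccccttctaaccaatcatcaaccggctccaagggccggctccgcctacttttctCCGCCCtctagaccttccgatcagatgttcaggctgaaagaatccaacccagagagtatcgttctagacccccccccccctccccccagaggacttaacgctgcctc
Hadh: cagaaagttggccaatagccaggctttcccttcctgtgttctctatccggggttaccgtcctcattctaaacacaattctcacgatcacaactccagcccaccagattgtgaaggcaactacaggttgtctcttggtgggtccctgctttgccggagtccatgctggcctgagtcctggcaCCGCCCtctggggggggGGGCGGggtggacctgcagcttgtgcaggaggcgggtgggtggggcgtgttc
Cs: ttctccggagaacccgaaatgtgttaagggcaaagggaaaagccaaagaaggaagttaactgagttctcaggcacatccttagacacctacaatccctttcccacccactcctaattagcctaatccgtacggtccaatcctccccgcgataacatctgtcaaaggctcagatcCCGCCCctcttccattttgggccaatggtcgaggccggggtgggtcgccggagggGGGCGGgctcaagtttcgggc
Hadhb: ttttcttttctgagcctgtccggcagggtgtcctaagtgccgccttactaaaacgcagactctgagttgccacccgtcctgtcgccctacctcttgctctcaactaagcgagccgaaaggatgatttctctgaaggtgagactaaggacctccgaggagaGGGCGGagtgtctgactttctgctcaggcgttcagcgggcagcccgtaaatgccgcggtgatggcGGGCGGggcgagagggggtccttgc
Cpt2: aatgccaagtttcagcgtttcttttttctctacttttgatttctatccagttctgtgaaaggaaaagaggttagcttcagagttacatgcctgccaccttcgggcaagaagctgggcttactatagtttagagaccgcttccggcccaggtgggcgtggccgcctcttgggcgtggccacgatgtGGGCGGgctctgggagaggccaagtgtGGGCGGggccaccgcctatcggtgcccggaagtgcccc
Both sets hold the box: it occurs 2 times in each of the 5 windows, and 32.7% of the 32851 promoter windows in the RefSeq table hold it at least once. A window was found for 9 of the 10 genes, with Idh3a the exception, and for Idh1 there was also a second start site whose window holds the box 1 time. Acadl holds it 4 times and Hadha 1 time, and it is not in the windows of Acadm and Acadvl.

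Other motifs were searched on both strands as well. The NF-kB consensus was in none of these windows, against 7.25% of all promoter windows, and neither was the NRF1 motif, a palindrome of GCGC repeats that 4.98% hold. The half-site AAGGTCA bound by estrogen-related receptors was in the Acadm window alone, against 4.08% of all windows. None of these matches overlapped a GC box, and a match or its lack in 250 bases shows nothing about binding. Hadha and Hadhb encode the alpha and beta subunits of the mitochondrial trifunctional protein and lie head to head: their start sites are 272 bases apart, and their windows share 228 bases.

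Signals were microarray intensities on a linear scale, and differences were taken as log2 ratios between arrays. Each effect of a virus was read in 2 pairs of separate arrays, and that of TNFa in 3: AdOVA over untreated and AdOVA with TNFa over TNFa alone, for example. A gene was counted as higher or lower where it differed by at least 2-fold in the same direction in both pairs; for TNFa these were the pairs without virus and with AdOVA. With 1 array per group there is no replicate error and no p-value. The gap between the log2 values of both pairs serves instead as a measure of spread; for AdOVA over no virus its median over 8927 measured genes was 0.38 and its 95th percentile 1.21. That gap also holds any true difference between cells with and without TNFa.

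Some features of the arrays run with the groups. The untreated, TNFa and AdOVA arrays were processed in the first of 2 recorded hybridization rounds and the other arrays in the second, and the AdIkBa-SR array was washed under another protocol with 0 cycles in place of 10 and 4 and a first stain of 420 s in place of 600 s. The 18S ribosomal RNA 5′ control gave 2601.1 on the AdOVA with TNFa array, against 120.33 to 537.05 on the others. The median signal was between 74.4 and 88.5, and the 3′ to 5′ ratio of Actb between 1.09 and 1.84. Of 15 dendritic cell markers, 12 were above the floor on all arrays, and Flt3, Ciita and Zbtb46 were not. None of the 9 markers of T, B and NK cells was above the floor on all arrays, and Cd3e, Cd3g, Cd4 and Pax5 were under it throughout.

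**Figure D1:**
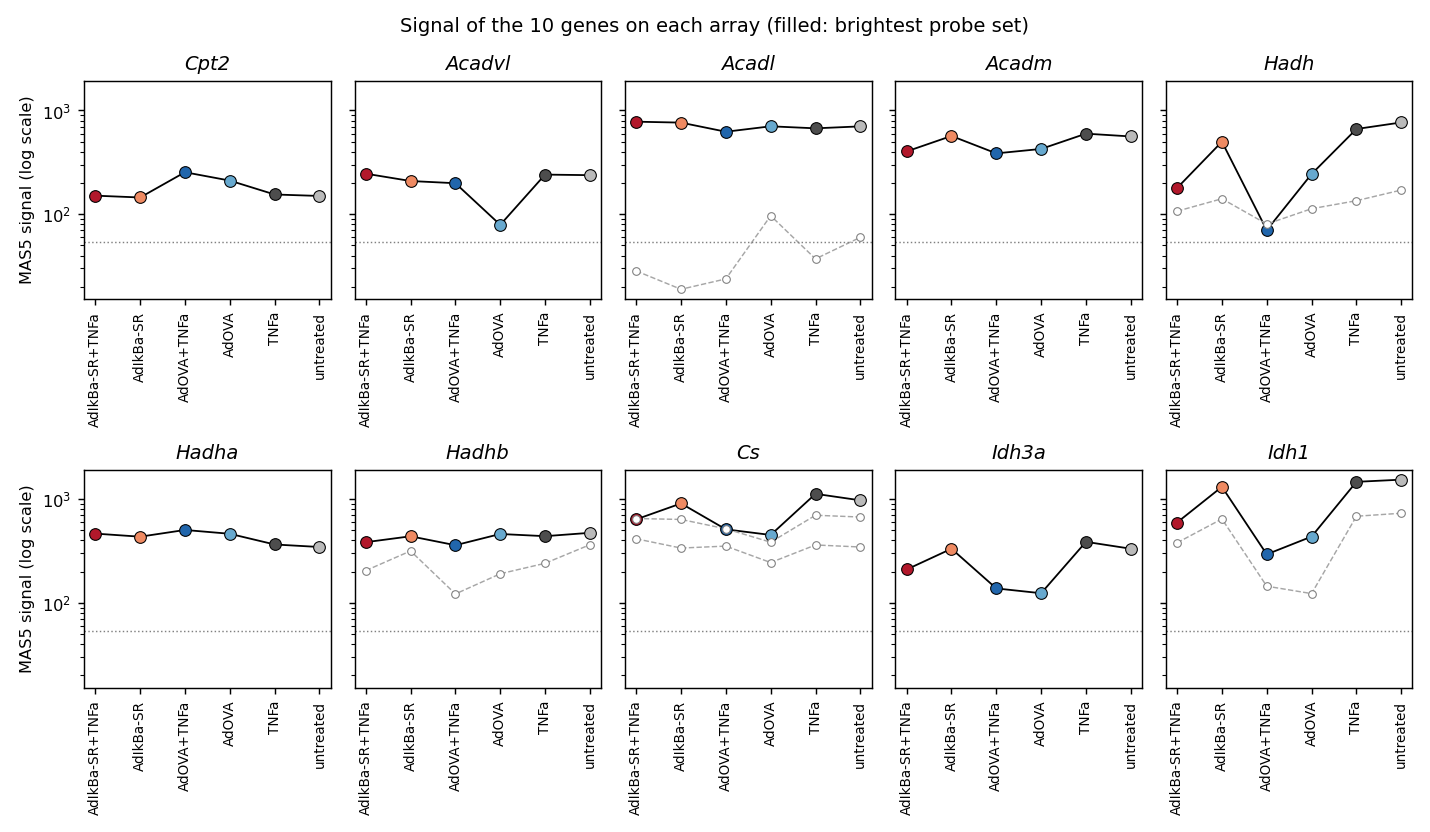
Signal (linear intensity, log axis) of the brightest probe set of each of the 10 genes on the 6 arrays; each point is 1 array open points are other measured probe sets, and the dotted line is the floor of 53.46. Idh1, Hadh, Idh3a and Cs lie lower on both AdOVA arrays than on the arrays without virus, while the filled points of Acadl and Hadhb span 1.25-fold and 1.32-fold over all arrays.

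The largest contrasts were in the isocitrate and citrate enzymes and in Hadh. With AdOVA, Idh1, Idh3a, Cs and Hadh were at least 2-fold lower in both pairs, 4 of the 10 genes, and 0 of the 10 were at least 2-fold higher. Over all measured genes 1.25% were lower and 1.97% higher by the same rule, or 2.08% and 1.27% with the arrays scaled to equal medians, which left the same 4 genes lower; since the genes were picked with this comparison known, nothing is read from that difference. The median log2 difference of the 10 genes was -0.76 without TNFa and -0.46 with TNFa, against 0.04 and 0.08 over all genes. The pair without TNFa lies within 1 hybridization round, while the pair with TNFa spans both rounds. In these bulk samples, fewer cells of a type and less RNA per cell cannot be told apart.

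Idh1, the NADPH-producing isocitrate dehydrogenase, had a signal of 436 with AdOVA and 294 with AdOVA and TNFa, against 1543 in untreated cells and 1470 with TNFa alone. Both AdOVA arrays lay well below both arrays without virus, with log2 differences of -1.82 and -2.32. Its other probe set read 123 and 145 with AdOVA, against 732 and 685 without virus, which gave -2.57 and -2.24. Both probe sets of Idh1 therefore passed the 2-fold rule in both pairs, and across the 6 arrays its highest signal was 5.25 times its lowest.

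Hadh, the 3-hydroxyacyl-CoA dehydrogenase of medium and short chains, had a signal of 244 with AdOVA and 70.2 with AdOVA and TNFa, against 767 in untreated cells and 663 with TNFa alone. The log2 differences were -1.65 and -3.24. The gap of 1.59 between them exceeded the 95th percentile over all genes, and the lowest value came from the array with the high 18S control. A second measured probe set of Hadh was lower as well but by less, at 113 and 80.4 with AdOVA against 171 and 135 without virus, or -0.60 and -0.74. The 2-fold count of Hadh thus rests on 1 probe set, of the class that Affymetrix marks as open to cross-hybridization.

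Idh3a, the catalytic alpha subunit of the NAD-dependent isocitrate dehydrogenase, read 124 with AdOVA and 138 with AdOVA and TNFa, against 333 in untreated cells and 388 with TNFa alone. The log2 differences of -1.42 and -1.49 were within 0.38 of each other, and this was the only measured probe set of Idh3a. Cs, citrate synthase, read 452 and 512 with AdOVA, against 975 and 1126 without virus, or -1.11 and -1.14. Its other 2 probe sets differed by less, at -0.81 and -0.43 for the one and -0.50 and -0.03 for the other, so the 2-fold count of Cs also rests on 1 of 3 probe sets.

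None of the remaining enzymes of the oxidation spiral was at least 2-fold lower in both pairs. Acadvl, Acadm and Hadhb were lower in both, Acadl differed little, and Hadha was higher. Acadvl, the dehydrogenase of very long chains, read 79 with AdOVA against 238 in untreated cells (-1.59), but 199 with AdOVA and TNFa against 241 with TNFa alone (-0.27). The gap between its pairs was above the 95th percentile over all genes, so a single array sets its low value. Acadm, the medium-chain dehydrogenase, had 426 and 386 with AdOVA, against 562 and 598 without virus, or -0.40 and -0.63. Acadl, the long-chain dehydrogenase, had 704 and 624 with AdOVA, against 703 and 673 without virus, differences of 0.00 and -0.11. A second probe set of Acadl was above the floor on only 2 arrays.

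The trifunctional protein gave a divided picture between its subunits. Hadha read 464 with AdOVA and 505 with AdOVA and TNFa, against 346 and 366 without virus, so both AdOVA arrays were the higher ones, by 0.42 and 0.46. Hadhb read 462 and 360 with AdOVA, against 474 and 440 without virus, or -0.04 and -0.29. Its second probe set, again marked as open to cross-hybridization, read 191 and 122 against 364 and 241, or -0.93 and -0.98. The probe sets of Hadhb thus do not give 1 answer. Cpt2, which turns carnitine esters back into acyl-CoA inside the mitochondrion, read 211 and 254 with AdOVA, against 150 and 155 without virus, or 0.49 and 0.71, the highest values among the 10 genes.

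**Figure D2:**
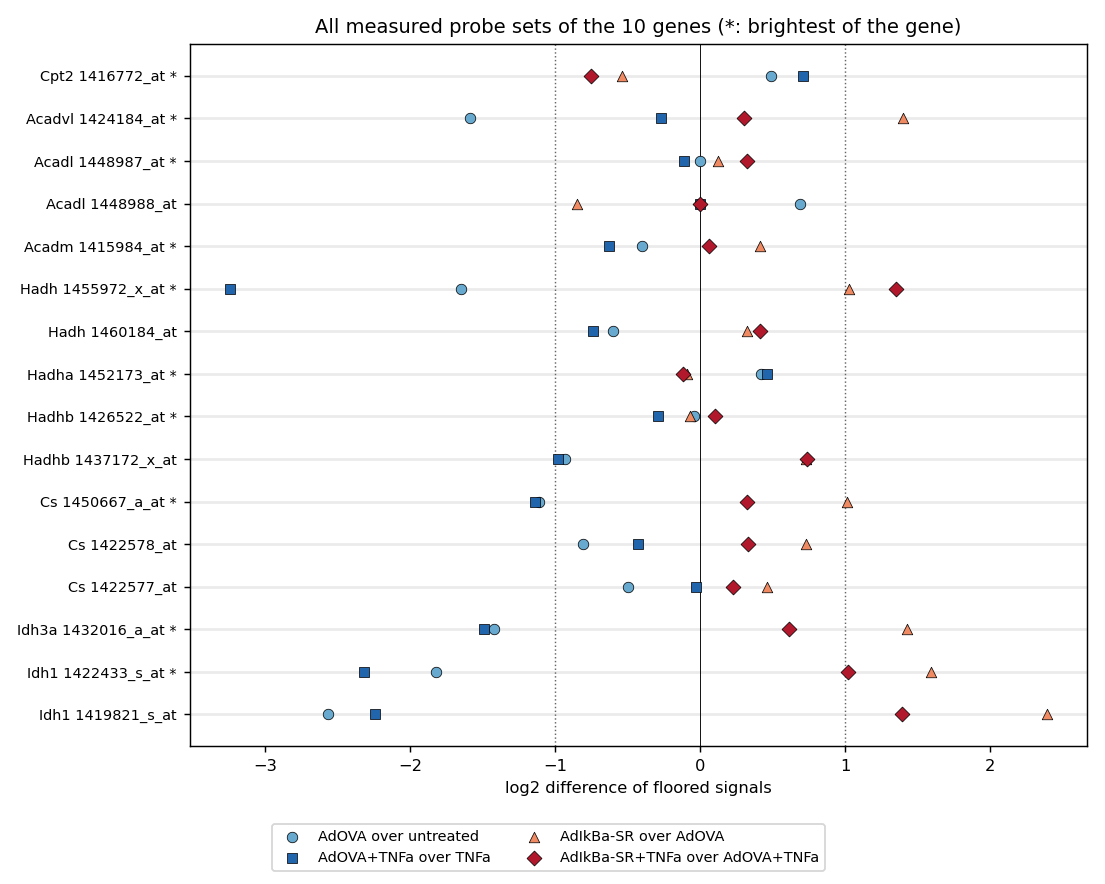
Log2 difference for each measured probe set of the 10 genes (rows; * marks the brightest), in AdOVA over no virus (blue) and AdIkBa-SR over AdOVA (orange and red), without and with TNFa; dotted lines mark 2-fold. Both probe sets of Idh1 lie beyond 2-fold lower for AdOVA in both pairs, whereas the second probe sets of Hadh, Hadhb and Cs lie within it.

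The super-repressor virus was set against the control virus next. These comparisons share the AdOVA arrays with those above, so the values stand side by side and are not 2 independent readings. With AdIkBa-SR, Hadh and Idh1 were at least 2-fold higher than with AdOVA in both pairs, 2 of the 10 genes, where 1.1% of all measured genes were; 0 of the 10 were at least 2-fold lower, where 1.61% were. With equal medians the same 2 genes were higher, where 2.11% of all genes were higher and 0.967% lower. Quantile normalization and the mean over all probe sets each left Idh1 alone past 2-fold, and log2(signal + 16) without a floor left 0 genes. The median log2 difference of the 10 genes was 0.71 without TNFa and 0.31 with TNFa, against -0.06 and -0.11 over all genes. The first of those pairs spans both hybridization rounds and rests on the array with the other wash protocol, while the second lies within 1 round.

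Idh1 read 1316 with AdIkBa-SR and 596 with AdIkBa-SR and TNFa, against 436 and 294 with AdOVA, or 1.59 and 1.02. Hadh read 500 and 179 with AdIkBa-SR, against 244 and 70.2 with AdOVA, or 1.03 and 1.35. Its second probe set gave 141 and 107 against 113 and 80.4, so it too was higher in both pairs, by less than 2-fold. Idh3a read 333 and 210 with AdIkBa-SR against 124 and 138 with AdOVA, or 1.43 and 0.61, and Cs read 910 and 639 against 452 and 512, or 1.01 and 0.32. For these 4 genes every AdIkBa-SR array was above the AdOVA array of the same TNFa state.

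Acadvl was higher by 1.40 without TNFa, at 209 against the low AdOVA value of 79, and by 0.30 with TNFa, at 246 against 199. Cpt2 was the one gene lower in both pairs by more than 0.5, at 145 and 151 with AdIkBa-SR against 211 and 254 with AdOVA, or -0.54 and -0.75. Acadm differed by 0.41 and 0.06, Acadl by 0.12 and 0.32, Hadha by -0.09 and -0.12, and Hadhb by -0.07 and 0.10. The second probe set of Hadhb was higher in both pairs, by 0.73 and 0.74. That of Acadl, above the floor on only 2 arrays, gave -0.85 and 0.00. None of these passed 2-fold in both pairs.

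**Figure D3:**
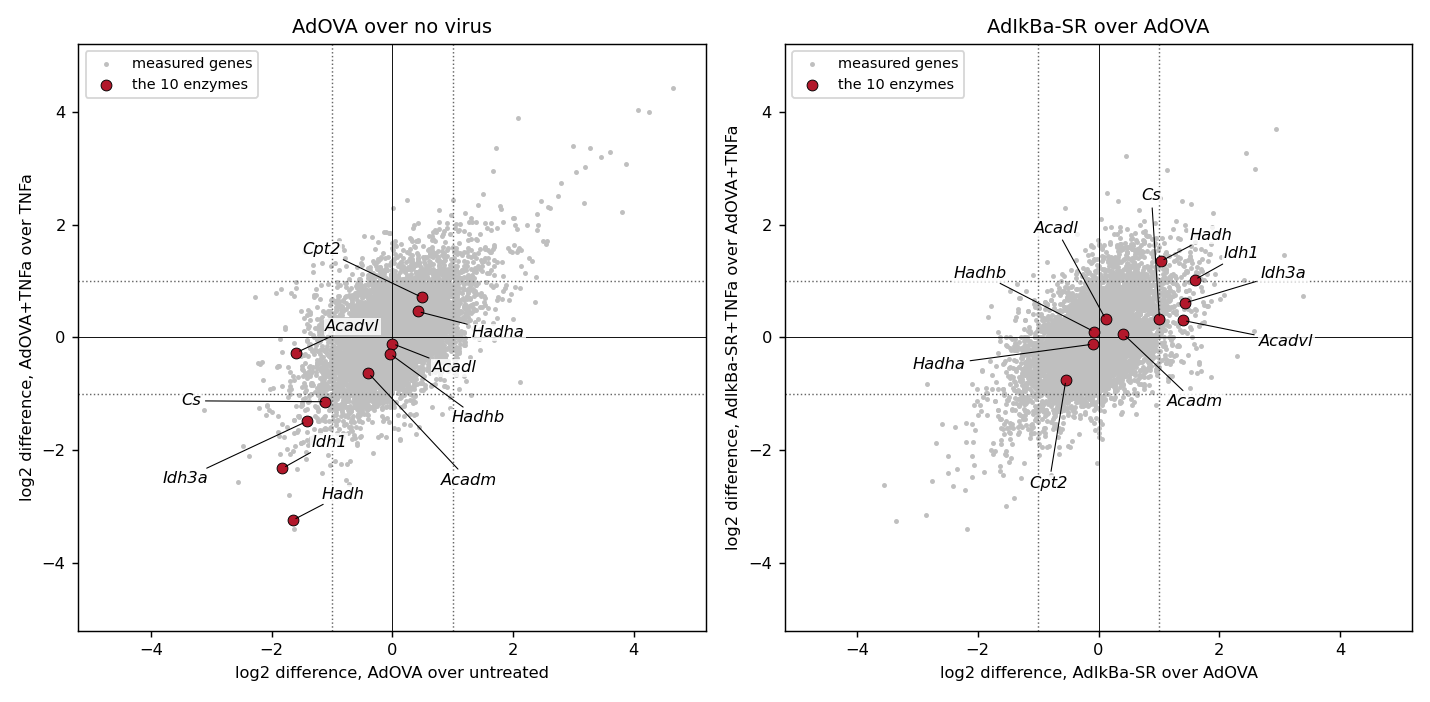
Log2 difference without TNFa (x) against the difference with TNFa (y) for all 8927 measured genes (grey) and the 10 enzymes (red), for AdOVA over no virus (left) and AdIkBa-SR over AdOVA (right); dotted lines mark 2-fold. Hadh, Idh1, Idh3a and Cs are more than 2-fold lower on both axes at left, and Hadh and Idh1 more than 2-fold higher on both axes at right.

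Set against cells without virus, AdIkBa-SR gave 0 of 10 genes at least 2-fold apart in both pairs, where 0.168% of all genes were higher and 0.0672% lower. Without TNFa the 10 genes lay between -0.62 and 0.33, with Hadh the lowest at 500 against 767 in untreated cells. With TNFa, 2 of the 10, Hadh and Idh1, were at least 2-fold lower in AdIkBa-SR cells than in cells given TNFa alone, where 2.35% of all genes were. Hadh then read 179 against 663 and Idh1 596 against 1470, or -1.89 and -1.30. Neither passed 2-fold on its second probe set, which gave -0.34 for Hadh and -0.85 for Idh1. Cs at 639 against 1126 (-0.82), Idh3a at 210 against 388 (-0.88) and Acadm at 403 against 598 (-0.57) were also lower in that pair. The other measured probe sets of Cs did not bear this out, at -0.10 and 0.20. Both pairs of this comparison span both hybridization rounds, and the pair without TNFa rests on the array with the other wash protocol.

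By their brightest probe sets, TNFa alone left the 10 genes close to their untreated values: the log2 differences in cells without virus were between -0.21 and 0.22. Second measured probe sets gave -0.34 for Hadh and -0.60 for Hadhb. That of Hadhb was also lower with TNFa in AdOVA cells (-0.64) and in AdIkBa-SR cells (-0.63). In none of the 10 genes did TNFa give a difference of at least 2-fold in the same direction in the pairs without virus and with AdOVA, where 0.0784% of all genes were higher and 0.179% lower. In AdOVA cells, Hadh was lower with TNFa, at 70.2 against 244, or -1.80, and Acadvl higher, at 199 against 79, or 1.33. In that pair, which spans both hybridization rounds, 3.33% and 4% of all genes were at least 2-fold lower and higher. In AdIkBa-SR cells, Hadh and Idh1 were at least 2-fold lower with TNFa, 2 of the 10 genes, where 0.829% of all genes were. Hadh read 179 against 500 (-1.48) and Idh1 596 against 1316 (-1.14), while their second probe sets gave only -0.40 for Hadh and -0.77 for Idh1. The AdIkBa-SR array without TNFa is the one with the other wash protocol, and its part in these values was not tested.

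Other genes of the same pathways were read from 8 lists of transporters, enzymes and regulators, which hold 99 measured genes besides the 10. With AdOVA, 6 of the 99 were at least 2-fold lower in both pairs and 1 was higher, or 6.06% and 1.01%. Over all measured genes these shares were 1.25% and 1.97%. The median log2 difference of the 99 was -0.20 against 0.07 over all genes. With AdIkBa-SR over AdOVA, 4 were higher and 0 lower, or 4.04% and 0%, where 1.1% and 1.61% of all measured genes were. The median of the 99 was then 0.07 against -0.10 over all genes. The lists were drawn up with earlier results known, and nothing particular to them is claimed.

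Among the genes of fatty acid uptake, Fabp5, a cytoplasmic fatty acid binding protein, read 2523 and 1329 with AdOVA, against 6610 and 4958 without virus, or -1.39 and -1.90. With AdIkBa-SR it read 7350 and 6838, above the level without virus in both TNFa states. Cd36, a fatty acid and scavenger receptor, read 1514 and 1136 with AdIkBa-SR, against 386 and 314 with AdOVA, or 1.97 and 1.85. Slc27a4, a fatty acid transport protein with acyl-CoA synthetase activity, was the 1 gene of the lists that was higher with AdOVA, at 449 and 895 against 219 and 235 without virus, or 1.04 and 1.93. Cpt1a, the outer-membrane carnitine palmitoyltransferase, read 341 and 392 with AdOVA, against 391 and 359 without virus.

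Of the other mitochondrial oxidation enzymes, 1 of 14 measured was lower with AdOVA: Hsd17b10, a 3-hydroxyacyl-CoA dehydrogenase of branched and short chains, read 102 and 16.2, against 303 and 268 without virus. The value of 16.2 lies under the floor, so its difference of -2.33 is a bound, and a second probe set of the gene gave a mean of only -0.26. Hsd17b4, the peroxisomal bifunctional enzyme, read 9.22 and 69.2 with AdOVA, against 198 and 220 without virus, or -1.89 and -1.67, the first again a bound. Another probe set of Hsd17b4 gave a mean of -1.06. Acads, the short-chain dehydrogenase, read 302 and 312 against 239 and 172, or 0.34 and 0.85. In ketone body and branched-chain metabolism, Oxct1, which activates acetoacetate, read 147 and 125 with AdOVA against 418 and 459 without virus, and Acat1, a mitochondrial acetoacetyl-CoA thiolase, read 109 and 102 against 256 and 251. Means over the probe sets of Oxct1 ran from -1.69 to -0.77.

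In the citrate cycle list, 0 of the other 14 measured genes passed 2-fold in both pairs with AdOVA, though their median was -0.35. Idh3b, the beta subunit of the same enzyme as Idh3a, came close, at 250 and 261 with AdOVA against 553 and 474 without virus, or -1.15 and -0.86. Idh3g, its gamma subunit, read 241 and 295 against 355 and 274, or -0.56 and 0.11. Sdhd, an anchor subunit of succinate dehydrogenase, read 538 and 350 against 1065 and 963, or -0.98 and -1.46, with another probe set at a mean of -0.01. Idh2, the mitochondrial NADP-dependent isocitrate dehydrogenase, read 113 and 119 against 239 and 166, or -1.07 and -0.48.

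Pdha1, a subunit of pyruvate dehydrogenase, read 461 and 408 with AdOVA against 793 and 946 without virus, or -0.78 and -1.21. Acod1, which makes itaconate from the cycle intermediate aconitate, moved the other way, at 11004 and 11533 against 4575 and 6265, or 1.27 and 0.88. Among the NADPH-producing enzymes, Mthfd1, of folate metabolism, read 12.4 and 62.3 against 156 and 166, or -1.55 (a bound) and -1.41, with another probe set at a mean of -0.74. Of the 12 measured regulators none passed 2-fold in both pairs: Esrra, an estrogen-related receptor of oxidation genes, read 248 and 117 with AdOVA, against 120 and 159 without virus, and Sirt3, a mitochondrial deacylase, read 26.8 and 64.5 against 100 and 86. Ppara and Ppargc1a were not measured above the floor.

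The genes with the highest mean difference in 4 further lists stayed within 2-fold in both pairs. Auh, an enoyl-CoA hydratase of leucine breakdown, read 382 and 229 with AdOVA against 287 and 195 without virus, and Dlst, a subunit of the 2-oxoglutarate dehydrogenase complex, read 162 and 341 against 174 and 279. Amacr, a racemase of branched fatty acids, and Aldh1l1, a folate dehydrogenase, had low signals, with 91.1 and 48.1 for Amacr and 53.9 and 156 for Aldh1l1 with AdOVA, against 57 and 38.8 and against 59.3 and 86.2 without virus. Besides Fabp5 and Cd36, the genes at least 2-fold higher with AdIkBa-SR than with AdOVA in both pairs were Oxct1, at 428 and 314 against 147 and 125, and Hsd17b4, at 157 and 139 against 9.22 and 69.2. The Hsd17b4 value of 9.22 lies under the floor, and its difference with TNFa was 1.00. Another probe set of Hsd17b4 gave a mean of only 0.61. Means over the probe sets of Oxct1 ran from 0.84 to 1.44.

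Lower signals with AdOVA were not limited to these pathways. A comparison list of 15 measured genes of mitochondrial membranes and protein import had a median of -0.44 with AdOVA and 0 genes past 2-fold, and 8 commonly used reference genes had a median of -0.28. Those 8 include Sdha, with a mean of -0.40, which is also in the citrate cycle list. The dendritic cell markers went both ways: their median log2 difference was 0.03, and their summed signal was 12718 and 14325 with AdOVA, against 15145 and 14180 without virus and 14832 and 18168 with AdIkBa-SR. Of 14 measured, Itgax, which encodes CD11c, passed 2-fold downwards in both AdOVA pairs, at 247 and 329 against 699 and 755 without virus, and Ccr7, a chemokine receptor of mature dendritic cells, was at least 2-fold higher, at 402 and 516 against 195 and 177. The summed signal of 10 progenitor and cycling markers was 2061 and 1465 with AdOVA, against 2483 and 2527 without virus. With AdIkBa-SR it was 2704 and 2227. Much of it was Pcna, at 1466 and 854 with AdOVA, against 1229 and 1429 without virus. Of the 10, Top2a and Rrm2 were at least 2-fold lower in both AdOVA pairs and 0 were higher. Top2a read 56.2 and 77.5 with AdOVA, 226 and 194 without virus, and 177 and 194 with AdIkBa-SR. Rrm2 read 46.1 and 33.5 with AdOVA, both under the floor, against 166 and 149 without virus. Another Rrm2 probe set gave a mean of only -0.15. For 10 granulocyte markers, 7 of them above the floor on all arrays, the sum was 23691 and 14853 with AdOVA. It was 28823 and 22303 without virus and 33369 and 34182 with AdIkBa-SR. Over all 6 arrays the summed signals lay between 35152 and 43646 for 9 macrophage and monocyte markers, and between 1644 and 2169 for 10 mast cell and basophil markers. Single markers in these 2 lists differed more. Fcgr1 and Hdc were at least 2-fold higher in both AdOVA pairs, and 0 were at least 2-fold lower. With AdOVA, Fcgr1 read 1367 and 1011 against 659 and 482 without virus, and Hdc 605 and 418 against 122 and 164. Cpa3 was lower by less than 2-fold, at 275 and 286 against 545 and 480. The sum of 6 erythroid and megakaryocyte markers, 4 of them above the floor on all arrays, was 5980 and 3259 with AdOVA, against 8081 and 6544 without virus and 10016 and 9681 with AdIkBa-SR, and most of it was Pf4, at 5349 and 2629 with AdOVA, against 7565 and 6057 without virus and 9550 and 9168 with AdIkBa-SR. The part of these markers in the values of the 10 enzymes was not tested.

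**Figure D4:**
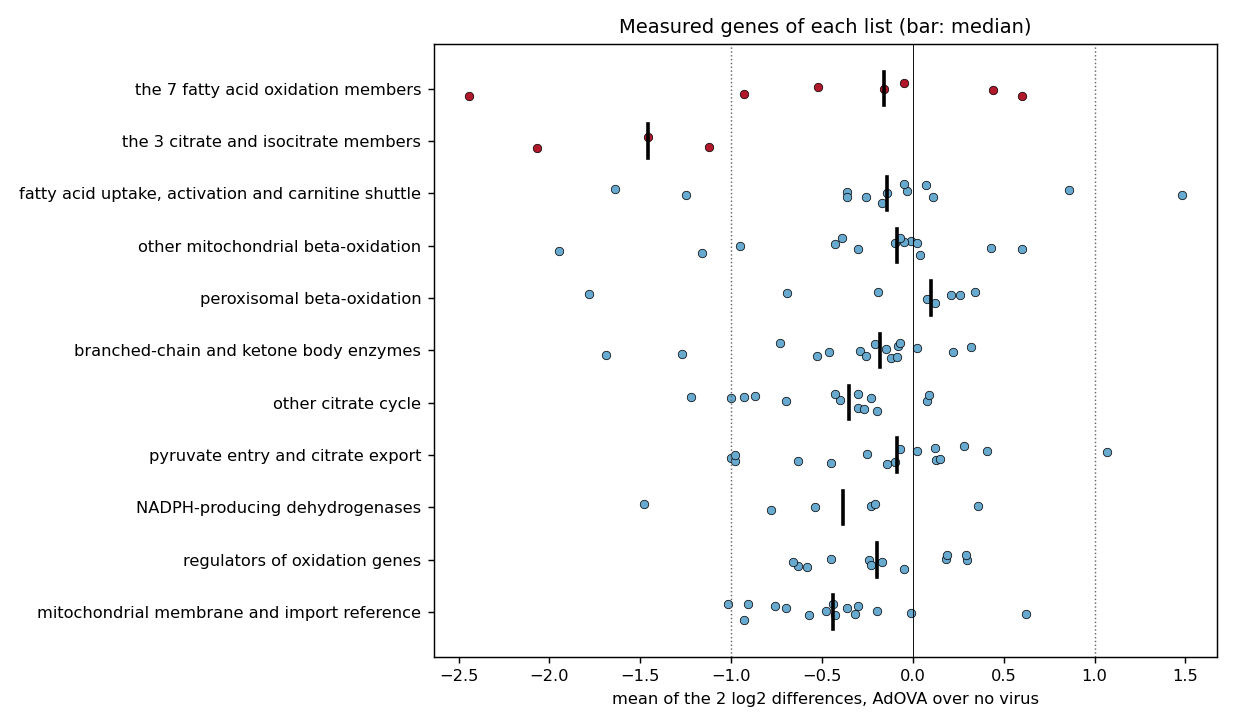
Mean log2 difference (AdOVA over no virus) for each measured gene of each list; bars mark list medians, the solid line is 0 and dotted lines are 2-fold. The 3 citrate and isocitrate enzymes were picked with this comparison known, so nothing is read from their lowest median, at -1.46. The other 14 citrate cycle genes have a median of -0.35, and that of the 15 mitochondrial membrane and import genes is also below 0.

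The 10 genes together, each centred on its own mean, gave a mean log2 level of -0.37 with AdOVA and -0.47 with AdOVA and TNFa, and of 0.26 with AdIkBa-SR and -0.14 with AdIkBa-SR and TNFa, against 0.35 in untreated cells and 0.37 with TNFa alone. The 5 other genes whose signals followed this profile most closely, of 2386 candidates above the floor on all arrays and ranging over at least 2-fold, were Acat1, Dnajc2, Vma21, Npm1 and Mbnl1, with Pearson r of 0.993, 0.989, 0.989, 0.988 and 0.986 over the 6 arrays. The best of so many candidates over 6 points is a description of these arrays only. Npm1, which encodes the nucleolar protein nucleophosmin, read 506 and 412 with AdOVA, against 1189 and 1151 without virus.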

How the data were processed

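The authors deposited 1 intensity per probe set and array, on a linear scale; per the submitters' processing notes the software was MAS5, and its version and the probe-level settings are not given in the sources used here. The trimmed mean (2% off each end) was 198.6 to 198.8 on every array, so no scaling was added. Groups came from the titles. Signals under 53.46, the 40th percentile of non-control signals, were set to that floor and log2 ratios taken between arrays, which understates differences of dim genes. Where a gene had several probe sets with 1 symbol, the brightest was used. With 1 array per group there was no replicate, no test and no p-value, and limma was not used. The number of arrays, not depth, limits precision. The labels do not say whether groups came from separate cultures.

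The genes, lists and rules were chosen with earlier results of these data known. All 10 genes are named. Others of the 8 pathway lists are named if past 2-fold in both pairs for AdOVA or AdIkBa-SR, if at the extreme of their list, or if on a short list (Cpt1a, Idh2, Idh3b, Idh3g, Acod1, Esrra, Ppara, Ppargc1a). Npm1, Itgax, Ccr7, Pf4, Pcna, Top2a, Rrm2, Hdc, Cpa3 and Fcgr1 were singled out after their values were seen. The counting was tested on simulated data. Promoters came from the RefSeq table of GRCm38.p6. Python 3.11.15, pandas 2.3.3 and numpy 2.4.6 were used. Alternatives changed the scaling, the floor, the probe set rule, the fold, the filter and the arrays used.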

Additional observations from a re-analysis of the deposited data

Results flagged for a closer look

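Some genes had log2 differences of opposite sign for the same comparison in different virus or TNFa states, with some of the values close to 0. The log2 difference with TNFa in AdIkBa-SR cells was -0.67 for Idh3a, -0.51 for Cs and -0.49 for Acadm. In AdOVA cells the same difference was 0.15 for Idh3a, 0.18 for Cs and -0.14 for Acadm, and in cells without virus it was 0.22, 0.21 and 0.09 for Idh3a, Cs and Acadm. For Cs the change of sign rests on its brightest probe set. Its other measured probe sets were above 0 in every TNFa pair, at 0.03 and 0.30 in AdIkBa-SR cells. Acadm also differed by -0.57 for AdIkBa-SR with TNFa over TNFa alone, against 0.01 for AdIkBa-SR over untreated cells, and Idh3a by -0.88, against 0.00, a value above 0 only before rounding. With 1 array per state these differences between states were not tested, and the AdIkBa-SR array had another wash protocol. By the brightest probe sets, opposite signs were seen in 4 of the 10 genes for TNFa and in 3 for AdIkBa-SR over no virus. The share of all genes with opposite signs was not counted, so nothing is read from these counts. In the TNFa pairs, between 46.8% and 47.8% of all genes were below 0. The genes given here lie further apart than the median gap over all genes, a size requirement chosen after the values were seen.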

How the results depend on the processing

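No paired analysis was possible because each group has 1 array and so no replicate number to block on; the pairs used are matched by TNFa state, and no additive fit of virus and TNFa was run. The 4 genes lower with AdOVA became 2 at 3-fold, 3, without Cs, with the mean over all probe sets, and 5 without the AdOVA+TNFa and TNFa arrays. The 2 genes higher with AdIkBa-SR over AdOVA became 1 with quantile normalization, 1 with the mean over all probe sets, 3 at 1.5-fold, and 0 at 3-fold or without a floor, on log2(signal + 16). The 0 genes lower with AdIkBa-SR over no virus became 1 at 1.5-fold and 2 without the AdIkBa-SR and untreated arrays, alternatives by array being added after the data were seen. Why these counts moved was not tested beyond the change of threshold or arrays. The median of the 10 genes stayed between -0.88 and -0.61 for AdOVA and between 0.31 and 0.64 for AdIkBa-SR over AdOVA. Setting equal medians moved the median of all genes for AdOVA with TNFa over TNFa alone to -0.08, against 0.08 as reported, and for AdIkBa-SR with TNFa over AdOVA with TNFa to 0.07, against -0.11; genes past 2-fold with AdOVA were then 113 higher and 185 lower, against 176 and 112, and with AdIkBa-SR over AdOVA 188 and 86, against 98 and 144. A floor at the 20th percentile gave 326 and 193 for AdOVA, and 173 and 325 for AdIkBa-SR over AdOVA, over 11134 genes in place of 8927. A fold of 1.5 gave 605 and 487, and 425 and 601; a fold of 3 gave 41 and 17, and 10 and 28. The few genes past 2-fold for AdIkBa-SR over no virus (15 higher, 6 lower) and TNFa (7 higher, 16 lower) became 51 and 39, and 52 and 69, at the lower floor. Of 90 gene values per comparison, 4 moved by more than a spread between pairs for AdOVA and 3 for AdIkBa-SR over AdOVA. For AdIkBa-SR over no virus 4 moved and for TNFa 2, and no called value changed sign. This spread is the standard deviation over all genes of the difference between pairs, divided by the square root of 2, or 0.43 for AdOVA. The lower floor and both filter settings could not move any of these values. The brightest probe sets of all 10 genes were above the floor on all 6 arrays. The AdOVA counts of Hadh, Cs and Idh3a rest on 1 probe set each, as do those of Hadh and Idh1 for AdIkBa-SR with TNFa over either TNFa alone or AdIkBa-SR alone, and 1 array per group limits every value.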
